A study of Drosophila melanogaster with 2 samples.

Results

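The nuclear genes for the respiratory chain and the ATP synthase of Drosophila melanogaster were read against genome-wide binding of CG17612. Members were the protein-coding genes of the Ensembl BDGP6 annotation whose symbols start with ND-, UQCR-, COX and a digit, ATPsyn or Sdh, together with CIA30. The rule found 89 of 13968 protein-coding genes on the chromosome arms, of which 40 belonged to complex I, 8 to complex II, 9 to complex III, 16 to complex IV and 15 to complex V, with CIA30 as a separate assembly factor. The experiment was a chromatin immunoprecipitation followed by sequencing (ChIP-seq) of whole embryos aged 0 to 24 hours from the transgenic strain CG17612-GFP, in 2 biological replicates that formed 1 group. These flies carry a CG17612-eGFP fusion and the precipitation used an antibody to GFP, although the antibody field of the labels names CG17612. Peaks therefore mark where the tagged protein was recovered, averaged over every tissue and embryonic age in that span. A control experiment named in the labels was not analysed here, and with 1 group no condition could be compared.

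The respiratory chain sits in the inner mitochondrial membrane. Complex I takes electrons from NADH and complex II takes them from succinate, ubiquinone carries them to complex III, cytochrome c carries them on to complex IV, and oxygen is reduced there to water. Complexes I, III and IV pump protons, and the ATP synthase (complex V) uses the returning protons to make ATP. Most subunits are encoded in the nucleus, and several fly subunits have a second, diverged gene copy whose symbol ends in L or in L and a digit. These copies are known in flies for expression mainly in the testis.

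A gene was called bound when a peak summit lay within 500 bp of the start of any of its transcripts. The strict list was the conservative list of peaks that passed the authors' threshold on the irreproducible discovery rate (IDR, the expected share of peaks that do not repeat between replicates), which was 0.01. It held 2042 peaks on the arms, the less strict pooled list held 2207, and each replicate's own list held 1255 (replicate 1) and 1312 (replicate 2). Longer ranked lists, which also keep peaks that failed the threshold, held 126194 peaks in replicate 1 and 116601 in replicate 2. Each peak carries a score deposited by the authors, a signal value of unstated scale, so scores were in general compared only within a list. The exception is an ordering of members by the smaller of their 2 replicate scores. That ordering takes the scores of both replicates as alike in scale, which was not checked. The lists hold no read counts, and the sequencing depth behind each replicate is unknown.

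By the conservative list 8 of the 89 respiratory genes were bound, or 8.99% (95% Wilson interval 4.63 to 16.7%), against 8.69% of all protein-coding genes (1214 of 13968). They were CIA30, the complex I genes ND-ASHI, ND-24, ND-MWFE and ND-51, the complex III gene UQCR-C2, and the complex IV genes COX5A and COX5B. The share over all protein-coding genes lay well inside the interval for the respiratory genes, so as a family they were bound about as often as any other gene. Wilson intervals here cover counting error over genes only. No p-value was computed, since there is no second group and the genes are not replicates.

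The choice of list moved this count without parting it far from the background. In the less strict list 10 members were bound (11.2%, interval 6.22 to 19.5%), with COX6B and the complex I gene ND-B17 added, against 9.18% of all protein-coding genes. In the list of replicate 1 alone 6 were bound (6.74%), against 6.56% of all protein-coding genes. In the list of replicate 2 alone 4 were bound (4.49%), against 5.87%. Those 4, CIA30, ND-ASHI, ND-24 and ND-MWFE, were bound in all 4 thresholded lists. Bound in the own lists of both replicates were thus 4.49% of the members, against 4.48% of all protein-coding genes. Of the 8 conservative calls, 3 (COX5B, ND-51 and UQCR-C2) passed in neither replicate's own list. They passed only in the lists derived from both replicates. Each of the 3 had a ranked peak upstream of its start, within 500 bp, in both replicates. A ranked peak within 500 bp in both replicates was also found at 63.5% of all protein-coding genes. Its presence thus does not show that these peaks repeated, and failing in a replicate's own list does not show that they did not.

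**Figure D1:**
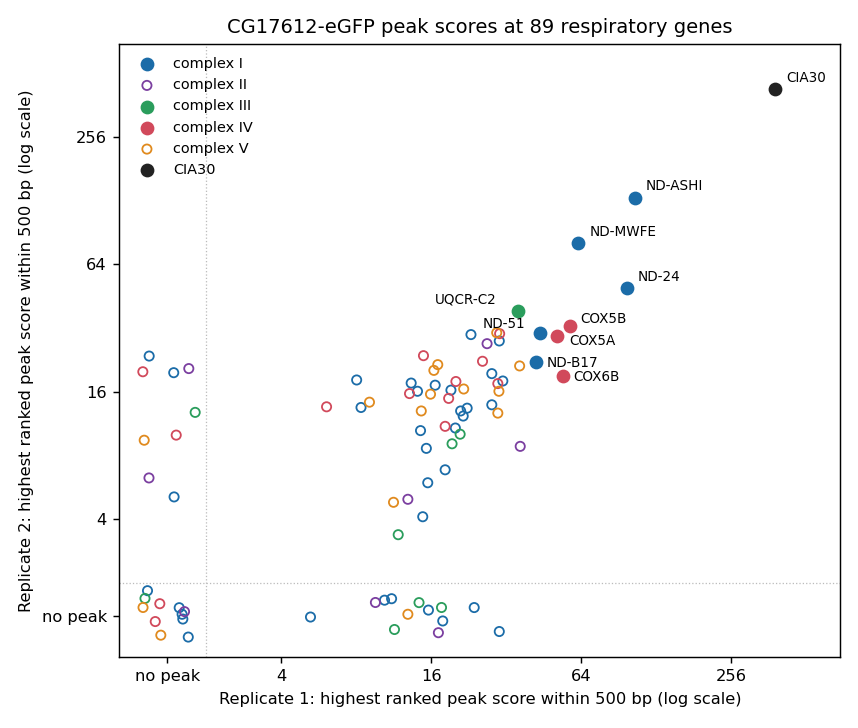
Highest ranked peak score within 500 bp of a start site for each of the 89 members in replicate 1 (x axis) and replicate 2 (y axis), both on a log scale, coloured by complex. Filled, named points are the 10 members bound in at least 1 thresholded list, open points are the other 79, and points in the margins (spread slightly so that they can be told apart) have no ranked peak in that replicate. CIA30 stands highest in both replicates, at 384 and 429.

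CIA30, the fly counterpart of human NDUFAF1, which helps to assemble complex I and is not a subunit of the finished enzyme, carried the highest peak of the family. Its conservative score was 822, the seventh highest of the whole list, in which the highest score on the arms was 1264. In the replicates' own ranked lists the peak scored 384 in replicate 1 and 429 in replicate 2. Its −log10 IDR was 5.0 in each, against a threshold of 2.0. Here and below, a −log10 IDR of a replicate's own list is not read as a measure of agreement between the 2 replicates. The peak at chr3R:29736730-29736973 (dm6) had its summit between genes, 110 bp upstream of the start of CIA30 and the same 110 bp upstream of the start of CG7601 on the other strand. The peak cannot be given to either gene by distance. The replicates' own summits lay 110 bp (replicate 1) and 118 bp (replicate 2) upstream of the start of CIA30.

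Complex I had 4 of 40 genes bound by the conservative list (interval 3.96 to 23.1%), against 8.69% of all protein-coding genes. ND-ASHI, an accessory subunit and the counterpart of human NDUFB8, had a peak at chrX:6679288-6679433 with a conservative score of 236, and with ranked scores of 105 in replicate 1 and 132 in replicate 2. The summit lay 237 bp upstream of ND-ASHI, within an intron of Fum1, and 285 bp upstream of another start of Fum1, which encodes the citric acid cycle enzyme fumarase and runs the opposite way. ND-24, the counterpart of NDUFV2, which holds an iron-sulfur cluster in the NADH-oxidising arm, had a peak at chrX:17632002-17632325 with a conservative score of 152. Its ranked scores were 97.6 in replicate 1 and 49.5 in replicate 2, and the summit lay 75 bp downstream of the start of ND-24 in the 5′ UTR and 117 bp upstream of corolla, a synaptonemal complex gene. ND-24 was the only one of the 8 bound members whose summit lay downstream of the start site.

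ND-MWFE, a small membrane subunit and the counterpart of NDUFA1, had a peak on arm 2R at chr2R:13158298-13158621 with a conservative score of 143. Its ranked scores were 62.3 in replicate 1 and 80.2 in replicate 2. The summit lay 206 bp upstream of ND-MWFE and only 15 bp upstream of a start of TppII, the gene for tripeptidyl-peptidase II. ND-51, the counterpart of NDUFV1, the subunit that binds flavin and first accepts electrons from NADH, had a weaker peak at chr2L:6062740-6063063 with a conservative score of 79.8. Its ranked scores were 43.8 in replicate 1 and 30.2 in replicate 2, with −log10 IDR values of 1.97 and 1.64, short of 2.0 in each replicate. The summit lay 145 bp upstream of ND-51 and 87 bp upstream of CG13994, on the opposite strand. In ND-B17, the counterpart of NDUFB6, the peak at chr2L:15751041-15751364 passed only in the less strict list, with a score of 62.3, and lay 125 bp upstream. Its ranked scores were 42.0 in replicate 1 and 22.2 in replicate 2.

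The peaks of complexes III and IV were lower than those of the 4 genes that repeated in every list. UQCR-C2, a core protein of complex III, was the 1 bound gene of 9 (11.1%, interval 1.99 to 43.5%), against 8.69% of all protein-coding genes. Its peak at chr3L:16583510-16583833 had a conservative score of 70.9, and its ranked scores were 35.8 in replicate 1 and 38.6 in replicate 2. The summit lay 452 bp upstream of UQCR-C2 in a coding exon of Rpn12, a proteasome subunit gene, the farthest of the 8 from its start site and with no other gene start within 500 bp.

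Complex IV, cytochrome c oxidase, had 2 of 16 genes bound (12.5%, interval 3.5 to 36.0%), against 8.69% of all protein-coding genes. COX5A, a nuclear-encoded subunit facing the matrix, had a peak at chr3R:11819386-11819709 with a conservative score of 84.2. Its ranked scores were 51.1 in replicate 1, with a −log10 IDR of 2.12, and 29.3 in replicate 2, with a −log10 IDR of 0.07, so replicate 1 alone passed by itself. The summit lay 51 bp upstream of a COX5A start, within the 5′ UTR of a longer transcript, and 128 bp upstream of glo, which encodes an RNA-binding protein. COX5B, another nuclear-encoded subunit on the matrix side, had a peak at chr2L:6557379-6557702 with a conservative score of 81.8. Its ranked scores were 57.5 in replicate 1 and 32.6 in replicate 2, and its −log10 IDR was 1.86 in replicate 1 and 0.06 in replicate 2. That summit lay 259 bp upstream of COX5B but 39 bp upstream of IFT52, an intraflagellar transport gene.

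COX6B, a subunit on the intermembrane face, passed in the less strict list with a score of 71.7 and in the list of replicate 1 with a score of 53.8. Its ranked score in replicate 2 was 19.1. The peak at chrX:19744246-19744569 had its summit 73 bp upstream of COX6B. CG18809, on the same strand, had a start at the same 73 bp, while CG33932 and Rpp20, an RNase P subunit gene, started 23 bp away on the opposite strand. COX5A and COX6B were the complex IV genes that passed in the list of replicate 1. No complex IV gene passed in that of replicate 2. There 0 of 16 leaves room for up to 18.8%, against 5.87% of all protein-coding genes.

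Complexes II and V had no bound member. Complex II, succinate dehydrogenase, had 0 of 8, which leaves room for up to 37.5%, and 1 of the 8, Sdhaf3, is an assembly factor by name. The ATP synthase genes had 0 of 15, which allows up to 20.0%. Both limits lie above the 8.69% of all protein-coding genes bound by the conservative list. Within 1000 bp the conservative list reached 9 members (10.1%), against 10.5% of all protein-coding genes, and the 1 added gene was ATPsynE. Its peak at chr3R:14327735-14328058, with a conservative score of 67.1, lay 829 bp downstream of the ATPsynE start and 154 bp upstream of spn-B, a DNA recombination gene. At the ATPsynE start itself the ranked scores were 36.2 in replicate 1 and 21.2 in replicate 2. ATPsynB had a thresholded peak in replicate 1 alone, with a score of 43.6, in its own coding exon 835 bp downstream of the start.

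**Figure D2:**
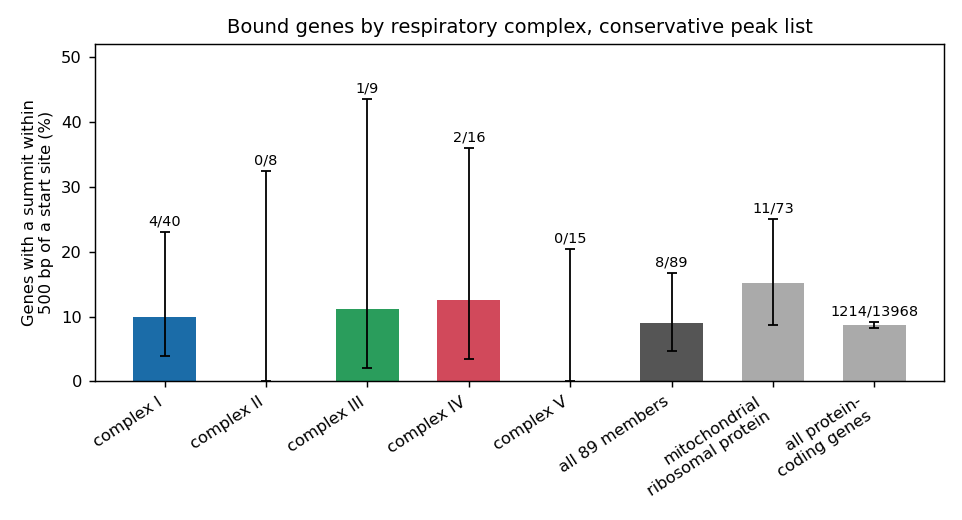
Percentage of genes with a conservative summit within 500 bp of a start site (y axis) for each complex, all 89 members, mitochondrial ribosomal protein genes and all protein-coding genes (x axis), with 95% Wilson intervals and the number bound over the number of genes. The intervals of all 5 complexes take in the 8.69% of all protein-coding genes.

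The empty count for complex V covered only genes named by the rule. The alpha subunit of the ATP synthase has the symbol blw and falls outside the rule. It was bound in all 4 thresholded lists, with a conservative score of 163, ranked scores of 107 in replicate 1 and 62.2 in replicate 2, and a summit 90 bp upstream. Likewise levy, a subunit VIa gene of complex IV, had a conservative score of 134, ranked scores of 64.9 in replicate 1 and 69.1 in replicate 2, and a summit 149 bp upstream. No other gene start lay within 500 bp of the blw summit, while that of levy was 61 bp from a start of wmd. Most genes of this kind were not bound. Of 9 genes for respiratory subunits and cytochrome c named outside the rule, 3 were bound, against 8.69% of all protein-coding genes. The others, sun, RFeSP, Cyt-c1, ox, cype and Cyt-c-p, were in no thresholded list.

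Of the diverged L copies 24 were members, and 0 of 24 were bound, which leaves room for up to 12.5%. In 20 of them the partner gene is a member as well, while ATPsynepsilonL, COX6AL, COX6AL2 and COX6CL are copies of genes named outside the rule. Without all 24 copies 8 of 65 members were bound (12.3%, interval 6.37 to 22.5%), and without the 20 alone 8 of 69 (11.6%, interval 5.99 to 21.2%). Both intervals again take in 8.69%. A ranked peak within 500 bp of a start was found in both replicates at 17 of the 24 copies (70.8%), against 63.5% of all protein-coding genes.

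Ranked peaks were about as common at the respiratory genes as elsewhere at 500 bp, with a lower share within 250 bp. A ranked peak lay within 500 bp of a start in both replicates at 56 of 89 members (62.9%, interval 52.5 to 72.2%), against 63.5% of all protein-coding genes. Within 250 bp it was 28.1% of members, against 38.4% of all protein-coding genes, and within 1000 bp it was 82.0%, against 84.4%. By complex, at 500 bp, this was 25 of 40 in complex I (62.5%), 3 of 8 in complex II (37.5%), 4 of 9 in complex III (44.4%), 12 of 16 in complex IV (75.0%) and 11 of 15 in complex V (73.3%). The median of the highest ranked score, with genes without a peak set to 0, was 15.9 over the members in replicate 1 against 17.1 over all protein-coding genes. In replicate 2 it was 13.0 over the members, against 12.9. Complex IV had the highest median of the 5 complexes in each replicate, 18.5 in replicate 1 and 17.7 in replicate 2. Complex II had the lowest in replicate 1, at 11.2, and complex III the lowest in replicate 2, at 3.39. With 8 to 40 genes a complex, these medians are descriptions and were not tested. The shares within 250 and 1000 bp are given without an interval and were not tested. The number of starts per gene was not matched.

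The 79 members outside every thresholded list reached no score near those of CIA30 or ND-ASHI. In replicate 1, 59 of them had a ranked peak, with scores between 5.25 and 36.4 (SdhBL) and a median of 17.6. In replicate 2, 55 had one, with scores between 3.39 and 30.4 (ATPsynCF6) and a median of 14.9. The highest of these by the smaller of the 2 replicate scores was COX7A, a complex IV subunit gene, with 30.1 in each replicate. It was followed by ATPsynCF6, coupling factor 6 of the ATP synthase, with 29.3 in replicate 1 and 30.4 in replicate 2, and by ND-42, a complex I subunit gene, with 30.0 and 27.8.

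SdhC, which encodes a membrane anchor of succinate dehydrogenase, had 26.8 in replicate 1 and 27.0 in replicate 2, and the complex I gene ND-B18 had 23.1 and 29.8. In all 5 genes the highest-scoring summits of the 2 replicates did not coincide, and overlap of the peak intervals was not examined. In the ranked list derived from both replicates the −log10 IDR was 1.72 at COX7A and 1.67 at ATPsynCF6, short of 2.0. It was 0.72 at ND-42, 0.25 at SdhC and 0.55 at ND-B18. The COX7A summit lay 164 bp downstream of a start in replicate 1 and 286 bp downstream in replicate 2. That of ATPsynCF6 lay 32 bp downstream in replicate 1 but 90 bp upstream in replicate 2, and that of ND-42 lay 65 bp upstream in replicate 1 and 309 bp upstream in replicate 2. The SdhC summit lay 421 bp upstream of a start in replicate 1 but 144 bp downstream in replicate 2, and that of ND-B18 lay 477 bp downstream in replicate 1 but 267 bp upstream in replicate 2. There were 11 members with no ranked peak near a start in either replicate, among them the catalytic subunit genes SdhA of complex II and ATPsynbeta of complex V. They also included ND-49, which like ATPsynbeta lies on chromosome 4. Others were ND-MLRQ, ND-AGGG and UQCR-11, at 460421, 849975 and 994430 bp from the nearest conservative summit. Without read counts, the coverage at these genes is unknown. The median member lay 12365 bp from the nearest conservative summit.

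**Figure D3:**
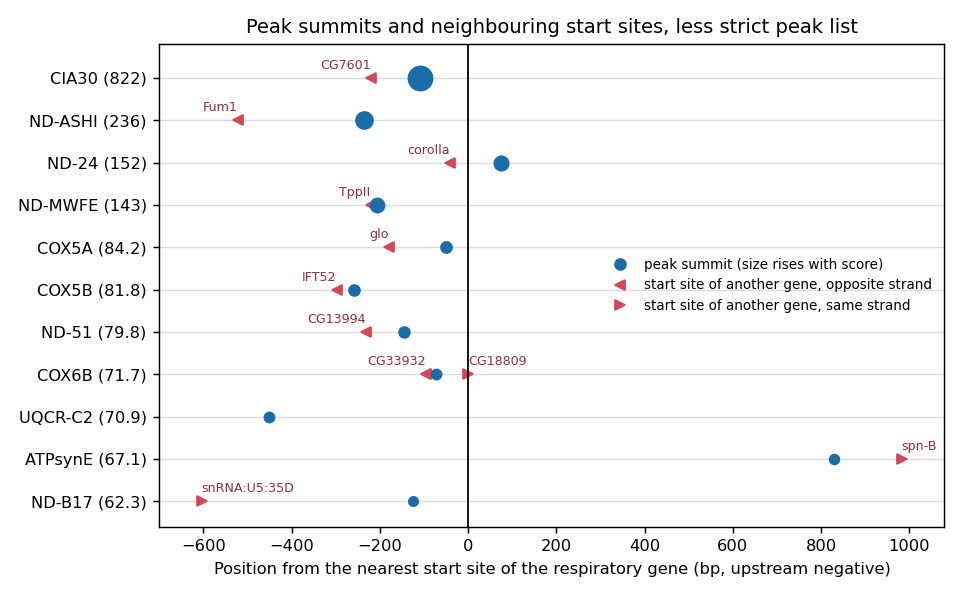
Position of each peak summit relative to the nearest start site of the respiratory gene (x axis, bp, upstream negative) for the 11 members with a peak of the less strict list within 1000 bp, with the peak score in brackets. Triangles are start sites of other genes within 500 bp of the summit, and CG33932 also stands for Rpp20, which starts at the same place. In 7 of the 8 conservative calls within 500 bp, all but UQCR-C2, a gene on the opposite strand starts within 500 bp of the summit.

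Most of the bound members lay head to head with another gene. In 7 of 8 (87.5%) the summit lay within 500 bp of start sites on both strands, against 679 of 1214 bound protein-coding genes (55.9%). Close starts on opposite strands were also more frequent among the respiratory genes as a whole. An opposite-strand start of another gene lay within 500 bp of a start in 41 of 89 members (46.1%), against 4300 of 13968 protein-coding genes (30.8%). Of these 41 members 7 were bound (17.1%), against 16.1% of the 4300 genes. Of the 48 other members 1 was bound (2.08%), against 5.39% of the 9668 other protein-coding genes. The bound share thus lay near that of all genes with the same arrangement, and in 4 of the 8 peaks (CIA30, ND-MWFE, COX5B and ND-51) the partner's start was nearer to the summit or as near. Giving each peak to its nearest start only left 5 bound members (5.62%), against 6.32% of all protein-coding genes.

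Position and height were otherwise ordinary. The summit lay upstream of the start in 7 of 8 bound members (87.5%), against 86.4% of bound protein-coding genes, at a median distance of 176 bp against 143 bp. The median conservative score was 114 over the 8 members (range 70.9 to 822), against 115 over the 1214 bound protein-coding genes (range 8.73 to 1229). In 6 of the 8 peaks the interval had the same width of 324 bp, so the width carries little information on single peaks.

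The sequences at the peaks are shown because none of the words and motifs searched, described below, was found at all of them. Each is the Release 6 reference from RefSeq around the summit, read 5′ to 3′ on the strand of the respiratory gene, with capitals for 8-base words that were more frequent at the other conservative summits than beside them. For COX5B and COX6B the stretch stops where an annotated exon begins, and the peaks of ND-24 and COX5A (in a UTR), of UQCR-C2 (in a coding exon of another gene) and of ND-MWFE are not shown. CIA30 is chr3R:29736805-29736905 (plus strand), ND-ASHI is chrX:6679305-6679405 (minus strand), ND-51 is chr2L:6062852-6062952 (minus strand), COX5B is chr2L:6557503-6557591 (plus strand), COX6B is chrX:19744358-19744430 (minus strand) and ND-B17 is chr2L:15751153-15751253 (minus strand).
CIA30: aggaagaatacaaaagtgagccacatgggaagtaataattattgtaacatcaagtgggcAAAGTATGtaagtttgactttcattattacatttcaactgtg
ND-ASHI: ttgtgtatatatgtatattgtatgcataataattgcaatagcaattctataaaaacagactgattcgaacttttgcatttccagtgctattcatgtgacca
ND-51: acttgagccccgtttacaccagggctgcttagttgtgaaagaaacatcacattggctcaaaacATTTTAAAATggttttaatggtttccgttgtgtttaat
COX5B: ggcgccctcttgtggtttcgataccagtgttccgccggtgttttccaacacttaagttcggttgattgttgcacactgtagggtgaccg
COX6B: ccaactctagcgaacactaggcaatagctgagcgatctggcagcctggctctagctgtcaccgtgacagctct
ND-B17: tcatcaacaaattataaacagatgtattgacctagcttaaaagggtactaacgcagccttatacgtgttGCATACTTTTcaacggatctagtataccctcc

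The words were taken from the 2034 conservative summits away from the members, as the 10 most frequent within 50 bp of the summit relative to windows centred 300 bp to either side. They were chosen from these data and are a description. The word AAAGTATG, present at the CIA30 summit, occurred in 4.08% of those summit windows and 0.565% of the flanking windows. The word ATTTTAAA, present at ND-51, ND-24 and COX5A, occurred in 5.36% of summit windows and 2.06% of flanking windows. At least 1 of the 10 words was found at 4 of the 8 member summits, against 27.9% of the other summits and 10.8% of the flanking windows. The peaks of ND-ASHI, ND-MWFE, COX5B and UQCR-C2 held none. The stretch in capitals at ND-B17 contains GCATACTT, which is also the searched core of the site of the insulator protein Su(Hw) and the reverse complement of another of the 10 words. AAAGTATG at CIA30 reads CATACTTT on the other strand and shares the letters CATACTT with that core. The CIA30 window did not hold the full core.

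The 8 conservative summit windows were searched on both strands for 10 motifs of known promoter and mitochondrial regulators, and TATAAA alone was found, in 3 of 8 (37.5%) against 19.6% of all 2042 summits. The Su(Hw) core (GCATACTT or GCATATTT) was in 0 of 8 member windows, which allows up to 37.5%, against 5.44% of all summits. The motif 1 core GGTCACAC was in 0 of 8, against 0.539%. No match says only that these letters were not in the window.

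**Figure D4:**
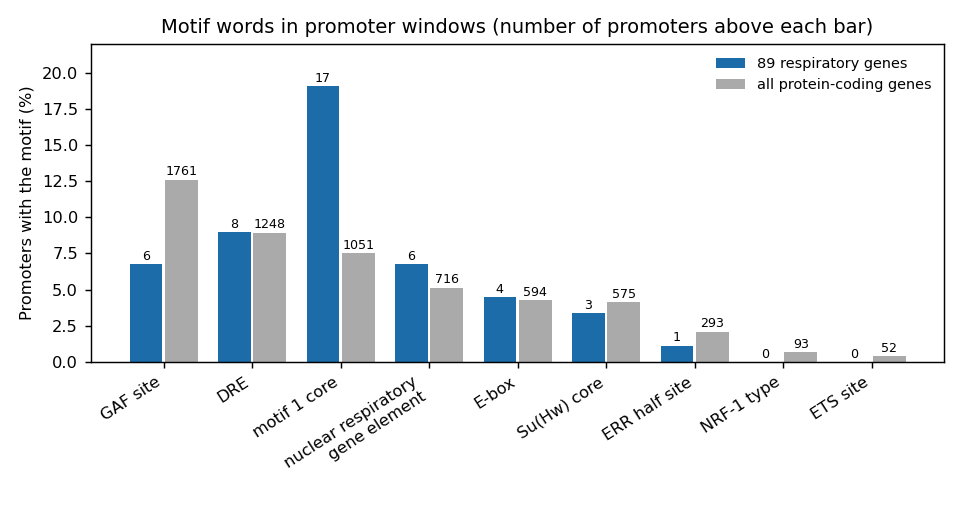
Percentage of promoters with each motif (y axis) for the 89 respiratory genes and for all protein-coding genes (x axis groups), with the number of promoters above each bar, and without TATAAA, which is far more common than the rest. The bars part most for the motif 1 core, at 19.1% of the respiratory genes and 7.52% of all protein-coding genes.

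The same motifs were then counted in all promoters, taken from 250 bp before to 50 bp after the start of the canonical transcript. The motif 1 core GGTCACAC, a core promoter element of broadly expressed fly genes, was in 17 of 89 members (19.1%), against 7.52% of 13967 protein-coding genes. It was in 7 of 40 promoters of complex I, 1 of 8 of complex II, 2 of 9 of complex III, 5 of 16 of complex IV and 2 of 15 of complex V. Of the bound members it was in COX5A, COX5B and ND-MWFE (3 of 8, 37.5%), against 9.88% of bound protein-coding genes, yet in none of their summit windows. Of the members not bound it was in 14 of 81 (17.3%). The repeat GAGAGA, bound by GAGA factor (GAF), was in 6 members (6.74%), against 12.6%. The members' promoters had a median GC content of 34.7%, against 38.0% over all protein-coding genes.

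The other motifs, among them those tied to mitochondrial genes, were closer in share to the whole genome, and none of these differences was tested. The nuclear respiratory gene element described in flies (searched as TTACATAA, TTACGTAA, TTATATAA or TTATGTAA) was in 6 members (6.74%), against 5.13%, of which 5 were complex I genes and none was bound. The DNA replication-related element TATCGATA was in 8 members (8.99%), against 8.94%, and in none of the 8 bound. The E-box CACGTG was in 4 (4.49%), against 4.25%, the Su(Hw) core in 3 (3.37%), against 4.12%, and the estrogen-related receptor site AAGGTCA in 1 (1.12%), against 2.1%. That site can overlap the motif 1 core by the letters GGTCA. CCGGAAGT, an ETS-type site, and CGCATGCG, resembling the site of mammalian NRF-1, were in 0 of 89, against 0.372% and 0.666% of all protein-coding genes. TATAAA was in 44 members (49.4%), against 45.3%.

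Other genes of oxidative metabolism were read from a list of 44, which was chosen with earlier results of these data known. Its bound share was not tested and is given without an interval. Of the 44 genes 40 were matched by symbol in the annotation and 7 were bound (17.5%), against 8.69% of all protein-coding genes. They comprised 3 of 9 genes for respiratory subunits and cytochrome c with other names (blw, levy and Cyt-c-d), 3 of 11 citric acid cycle genes, 1 of 8 regulators, 0 of 6 assembly and copper factors, and 0 of 6 carriers and electron entry genes. Beside blw, levy and Fum1, Idh3g, a subunit gene of isocitrate dehydrogenase, had a conservative score of 200 and ranked scores of 122 in replicate 1 and 75.8 in replicate 2, with its summit 128 bp upstream and CG4743 on the other strand. Cyt-c-d, a cytochrome c gene, had a conservative score of 181, but its summit lay 393 bp downstream of its start in an intron and 159 bp from CG31808.

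ERR, the estrogen-related receptor that controls glycolytic genes in flies, had a conservative score of 99.2 and shared its peak with Atg18a. The summit lay 247 bp upstream of ERR but 61 bp from a start of Atg18a, in the 5′ UTR of Atg18a. That peak passed in the list of replicate 1, with a score of 60.1. It did not pass in that of replicate 2, where its ranked score was 36.3. Scsalpha1, a succinyl-CoA ligase subunit gene, had a conservative score of 70.5 with its summit 434 bp downstream. The Fum1 call is the ND-ASHI peak counted a second time. In the replicates' own lists 6 of the 40 were bound in each replicate. Of all protein-coding genes 6.56% were bound in replicate 1 and 5.87% in replicate 2.

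For comparison with another nuclear-encoded mitochondrial family, 11 of 73 mitochondrial ribosomal protein genes were bound by the conservative list (15.1%, interval 8.63 to 25.0%). That interval overlaps that of the respiratory genes and takes in the 8.69% of all protein-coding genes. In each replicate's own list 9 of the 73 were bound (12.3%). Of the cytoplasmic ribosomal protein genes 33 of 92 were bound (35.9%, interval 26.8 to 46.1%), an interval above that of the respiratory genes. Only 13 of the 92 (14.1%) passed in the list of replicate 2 alone, against 30 (32.6%) in that of replicate 1 alone. The shares of all protein-coding genes were 6.56% in replicate 1 and 5.87% in replicate 2. CG17612 itself, a gene on arm 2L, had no thresholded peak near its start, and its only ranked peak there was in replicate 2, with a score of 14.5.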

How the data were processed

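Peak lists from 2 biological replicates of CG17612-eGFP embryos were used. The labels call them biological replicates. Per the deposited description files, peaks are on dm6 and the pooled lists derive from both replicates. Neither aligner nor peak caller is named in the sources used here. The score is the authors' deposited signal value, without a stated scale. A −log10 IDR for each peak was read from the deposited ranked lists; the conservative peaks and those of each replicate had at least 2.0.

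Summits were assigned to transcript starts of Ensembl release 115 (BDGP 6.54) within 500 bp, with Python 3.11.15, pandas 2.3.3, numpy 2.4.6 and scipy 1.17.1. The build was checked by reading start codons from the Release 6 genome, of which 99.8% were ATG. The assignment was tested on simulated peaks. Members and lists were chosen with earlier results of these data known, and the 8-base words after the peaks were read. The text names every member bound in any thresholded list or with a conservative summit within 1000 bp, the next 5 by the smaller ranked replicate score, CG17612, and the bound genes of the other pathway list. Further genes it names are neighbours or were chosen after their values were seen. Percentages were set beside those of all protein-coding genes without a test. Intervals and limits for counts of 0 (3 counts of the total) cover counting error only. Alternatives were the less strict list, each replicate alone, a stricter score, other distances, other assignments and the summit window for motifs.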

Additional observations from a re-analysis of the deposited data

How the results depend on the processing

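The 8 bound members ranged from 4 to 6 in the list of 1 replicate alone. Keeping the higher-scoring part of the conservative peaks left 4 (CIA30, ND-ASHI, ND-24 and ND-MWFE; 4.49%, against 5.41% of all protein-coding genes), and giving each peak to the nearest start left 5. Under that assignment complex I had 2 bound genes and complex IV had 1. Complex III had 0 in either replicate alone, 0 in the higher-scoring part and 0 within 250 bp. Complex IV had 0 without replicate 1, 2 without replicate 2, 0 in the higher-scoring part and 1 within 250 bp. Complex V had 1 within 1000 bp. The share of members with a ranked peak in both replicates was 28.1% within 250 bp, against 38.4% of all protein-coding genes, and 82.0% within 1000 bp, against 84.4%. At bound members the motif 1 core fell to 0 of 8 in the summit window, against 37.5% in the promoter, and GAGAGA fell to 0 of 8, against 12.5%; the windows cover different sequence. In the other 60 pairs of a result and an alternative, the value stayed within 1.5 times of the reported count or within the interval of the reported share. Many of these pairs say little on stability. They include complexes II and V with no bound gene under both settings, CIA30 bound under both, and motifs absent from both windows. Leaving out L copies could not change the count of 8, since none of them was bound. Leaving out all L copies was added after seeing the data and left 8 bound of 65. No paired analysis was possible because there is 1 group. The limits are 2 replicates of mixed embryos, few genes per complex, unknown depth, neighbouring starts that share a peak, and no control data used here.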
